A study of Mus musculus with 20 samples.

Results

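Nucleated erythrocytes were compared with granulocytes, both sorted from mice, on 2 microarrays each. The 4 arrays were those titled with these cell names, out of 20 arrays that profiled 10 blood cell types in pairs. Each array held RNA pooled from 4 wild-type female C57Bl/6 mice (CD45.1), 12 to 14 weeks old, and all groups shared this strain, sex and age. Neither the tissue nor the antibodies of the sorts are given in the sources used here. The other 8 types, used only to place the pair, were long-term haematopoietic stem cells, NK cells, B cells, monocytes, and naive and activated CD4 and CD8 T cells. RNA from 25000 to 50000 sorted cells had been amplified in 2 rounds before it was hybridised to Affymetrix Mouse430_2 arrays. Since the arrays measure bulk RNA, fewer cells of a type and less RNA per cell cannot be told apart.

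Nucleated erythrocytes, or erythroblasts, are the dividing precursors of red cells. They are driven by the factors Gata1, Tal1 and Klf1 and by signals from the erythropoietin receptor, make haemoglobin, heme and a specialised membrane skeleton, and finally expel their nucleus and clear their organelles. Granulocytes, mostly neutrophils, arise from dividing myeloid precursors under C/EBP factors and PU.1. They fill their granules with microbicidal proteins in an ordered series (primary granules first, then secondary and tertiary ones) and stop dividing before they become motile cells equipped with sensing receptors, integrins and the NADPH oxidase.

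Of 9810 genes tested, 2218 (22.6%) were called higher in nucleated erythrocytes than in granulocytes and 2974 (30.3%) were called lower. A call here means a limma adjusted p under 0.05 (Benjamini-Hochberg over all genes tested) and a log2 difference of at least 1, that is, at least 2-fold. The median difference over all genes tested was -0.01 log2 units. The differences were often large. A difference of at least 4 log2 units was found for 548 of the genes called higher and for 877 of those called lower. All 2218 genes called higher, and 2972 of the 2974 called lower, had arrays that did not overlap between the 2 types. On the same arrays 7811 of the 9810 genes did not overlap, so non-overlap alone was common. The arrays of one type correlated at 0.968 for nucleated erythrocytes and 0.979 for granulocytes over the genes tested, against 0.610 to 0.689 between types. These are correlations across genes, which are not independent replicates, and since the pools may share mice or preparations the p-values measure only the spread between these samples.

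**Figure D1:**
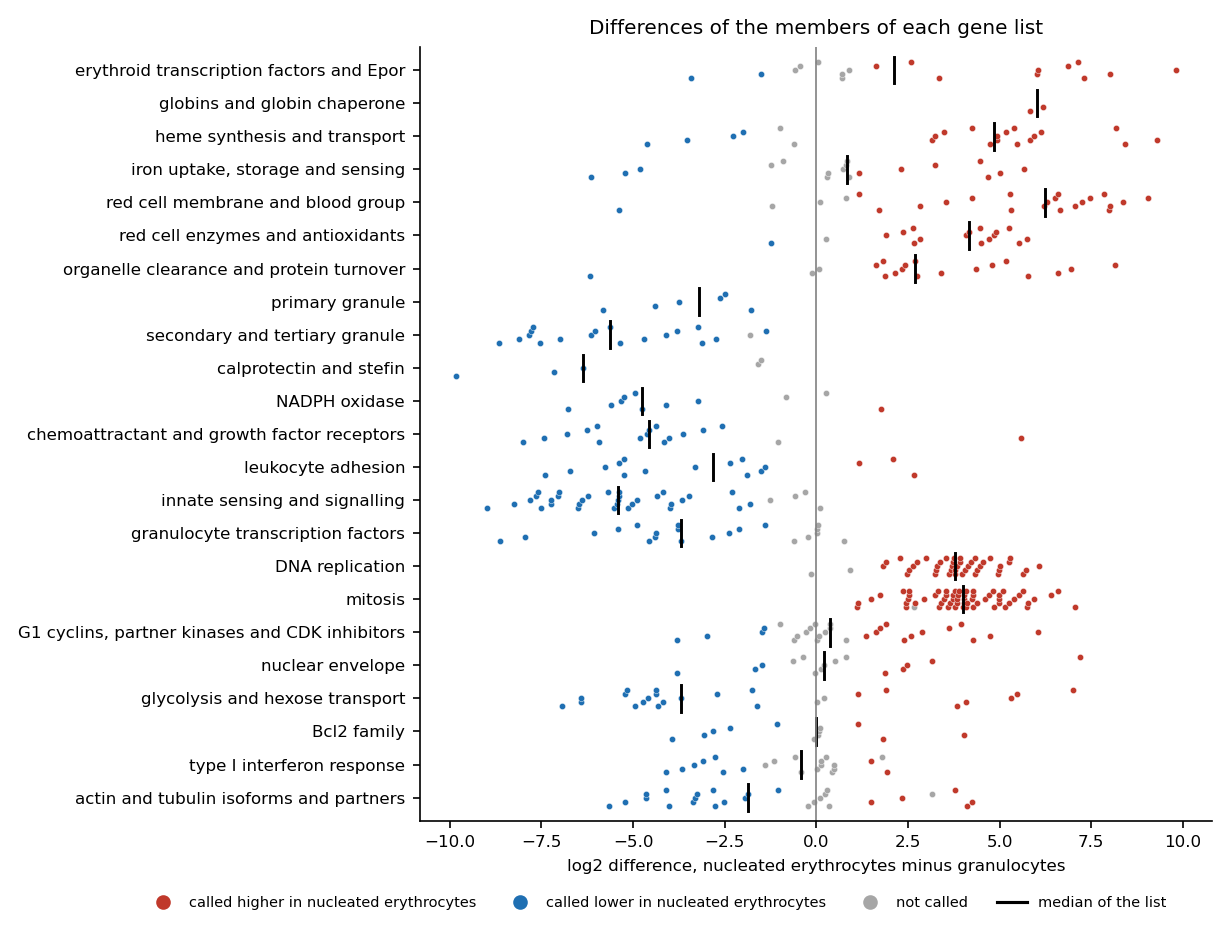
Differences (log2, nucleated erythrocytes minus granulocytes, horizontal axis) for each tested gene of 23 gene lists, 1 row per list. Each point is a gene, red where called higher in nucleated erythrocytes, blue where called lower and grey where not called, and the black bar is the list's median. The erythroid, replication and mitosis lists lie mostly to the right of 0, and the granule, receptor and sensing lists to the left.

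Lineage markers followed the labels, but each type also carried transcripts of the other at unequal levels on its 2 arrays. All 7 tested erythroid markers were higher in nucleated erythrocytes, with a median difference of 6.66 log2 units. Of 11 tested granulocyte markers 9 were lower, with a median of -3.65. Array medians of the erythroid markers were 13.52 and 13.34 in nucleated erythrocytes, against 8.98 and 4.17 in granulocytes, while the other 16 arrays lay between 1.96 and 2.69. The first granulocyte array was above the second for all 7 of these markers, by a median of 2.54 log2 units. Array medians of the granulocyte markers were 10.83 and 11.92 in nucleated erythrocytes, against 15.04 and 15.46 in granulocytes, and they were at or below 2.69 on every other array except the monocytes, which had 7.72 and 11.30. The second erythrocyte array was above the first for 10 of these 11 markers. What part such shared transcripts have in the differences below was not tested. Counts of several lists are therefore also given for the first erythrocyte array against the second granulocyte array. These are the 2 arrays with the least of the other type's markers. Some of these markers are also members of the lists counted, so like counts in this comparison are no independent support. That comparison, whose spread comes from the other types, called 2187 genes higher and 2523 lower. It shared 1971 and 2451 of these calls with the comparison of all 4 arrays.

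**Figure D2:**
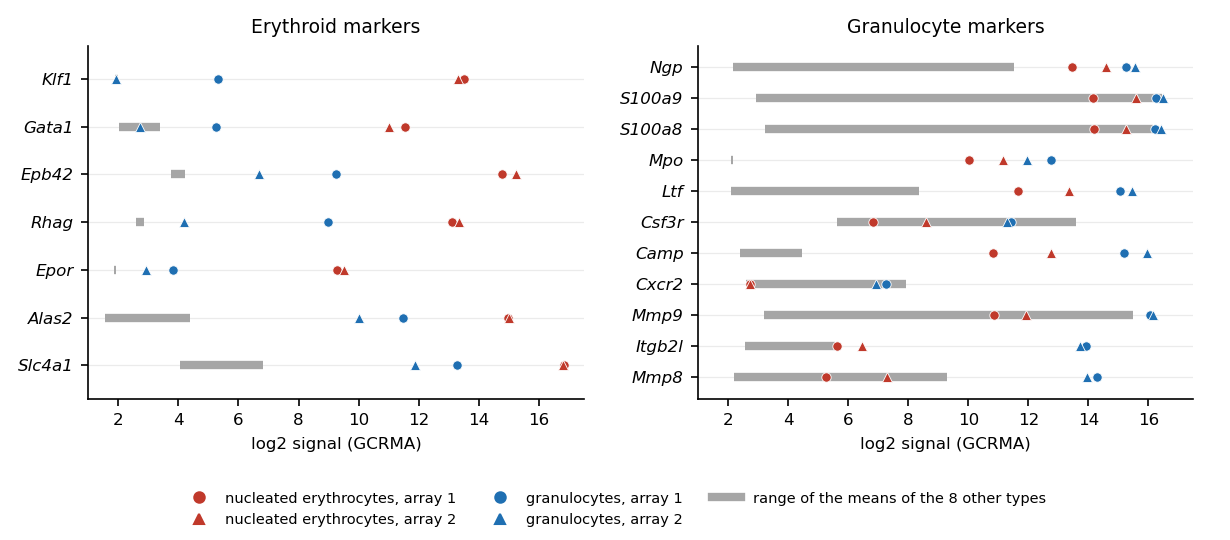
Log2 signal (horizontal axis) of the tested erythroid markers (left) and granulocyte markers (right), with nucleated erythrocytes in red, granulocytes in blue, circles for array 1 and triangles for array 2. Grey bars span the means of the 8 other types. For the erythroid markers the granulocyte arrays lie apart from each other, with array 1 higher, and for most granulocyte markers the erythrocyte arrays lie well above the low end of the grey bars.

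The largest difference in favour of nucleated erythrocytes was that of Agtr1a, an angiotensin II receptor. Its log2 signal was 13.20 and 13.08 in nucleated erythrocytes, against 2.87 and 2.75 in granulocytes, and the means of the 8 other types lay between 2.69 and 2.83. The receptor therefore stood apart on the 2 erythrocyte arrays alone, with a difference of 10.33 ± 0.17 (SE, 2 arrays a type) and a limma adjusted p of 2.00e-13. Next came Slc38a5, a glutamine transporter, with 13.04 and 12.73 in nucleated erythrocytes and 4.37 and 1.73 in granulocytes. The third was Klf1, the erythroid Krüppel-like factor, described below. Further members of the 15 largest were Tspo2, an erythroid relative of the mitochondrial translocator protein (9.30 log2 units higher), the Kell blood group protein Kel (9.05), the proline transporter Slc6a20a (8.90), the sphingosine-1-phosphate exporter Mfsd2b (8.68) and the sterol transporter Abcg4 (8.63). The list was completed by the transporter-family gene Slc22a23, the protease Capn5, the lipid phosphatase Plpp1, the apolipoprotein L gene Apol8, the Ufm1 peptidase Ufsp1, the actin-capping regulator Cracd and Samd11, between 8.49 and 9.73. Genes were ranked here only where the arrays of the 2 types did not overlap.

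At the other end stood Stfa2l1, a stefin that inhibits cysteine proteases. It measured 4.38 and 4.28 in nucleated erythrocytes and 14.16 and 14.18 in granulocytes, a difference of -9.84 ± 0.20 (SE; limma adjusted p 6.34e-13). Pglyrp1, a bactericidal peptidoglycan-binding protein of the granules, had 2.38 and 2.39 in nucleated erythrocytes, against 11.11 and 10.99 in granulocytes. The IgG receptor Fcgr4 had 2.09 and 2.01 in nucleated erythrocytes, against 11.01 and 11.03 in granulocytes. For these 3 genes the 2 arrays of a type lay close together. The other 12 of the 15 largest were Scrg1, Emb (a partner of lactate transporters), Hacd4 (fatty acid elongation), Arg2 (mitochondrial arginase), Cebpd (a C/EBP factor), the Ly49-family receptor Klra17, the lysosomal transporter Slc15a3, the cation channel Trpm2, the semaphorin Sema4f, Lpcat2 (which makes platelet-activating factor), the p38-delta kinase Mapk13 and the glycan-branching enzyme Gcnt2, between -9.53 and -8.38. All 15 reached a mean of at least 8.05 in 1 or more of the 8 other types. At the erythrocyte end no gene of the 15 had a mean above 8.49 in those types, so the 2 bounds overlap.

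**Figure D3:**
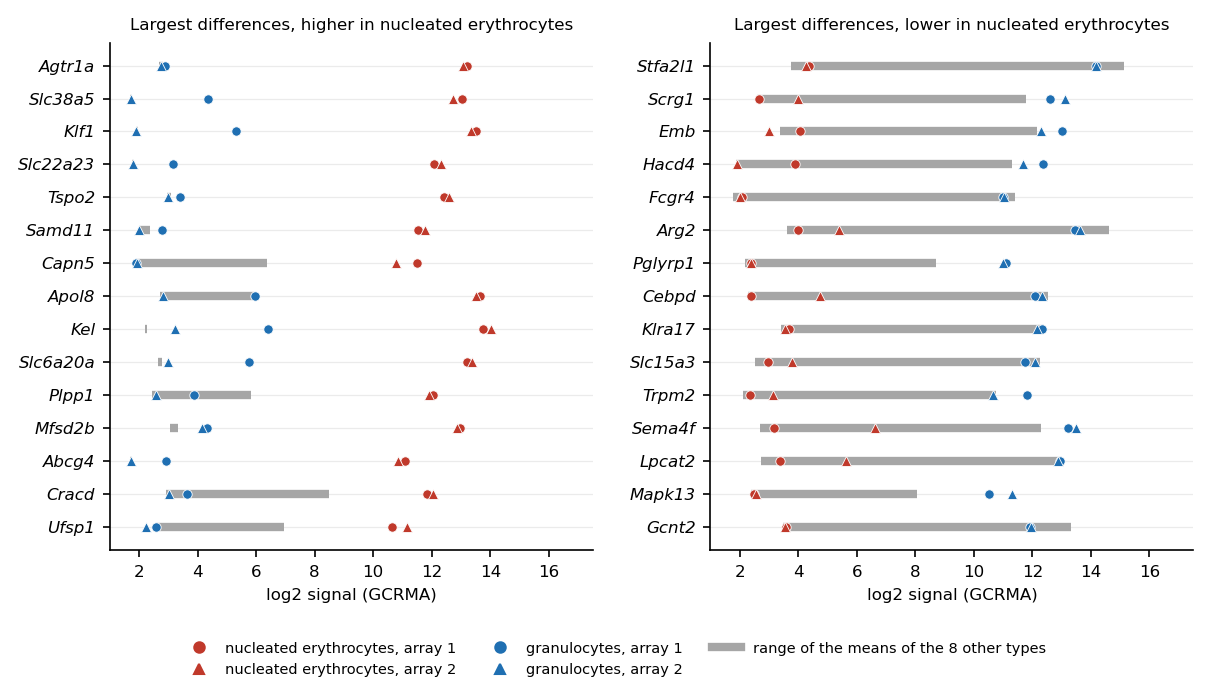
Log2 signal (horizontal axis) of the 15 genes with the largest differences in each direction, higher in nucleated erythrocytes (left panel) and lower (right panel). Red marks nucleated erythrocytes, blue granulocytes, circles array 1, triangles array 2, and grey bars the means of the 8 other types. The grey bars are short and low for most genes on the left and long for those on the right.

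Factors that drive red cell formation included the third largest difference of all. Of 18 tested genes of erythroid transcription factors and their receptor Epor, 10 were higher and 2 lower, and the median was 2.11. Klf1 measured 13.52 and 13.33 in nucleated erythrocytes, against 5.32 and 1.91 in granulocytes, and the other types lay between 1.88 and 1.98. The 2 types did not overlap, and the difference was 9.81 ± 0.69 (SE; limma adjusted p 5.08e-08). The second granulocyte array was at the level of the other types and the first was above it. Gata1, the GATA factor of the erythroid programme, had 11.56 and 11.02 in nucleated erythrocytes, against 5.26 and 2.72 in granulocytes. Its partners moved with it: Tal1 was 7.15 higher, the Gata1 cofactor Zfpm1 6.87, the repressor Gfi1b 6.04, and Sox6, which silences embryonic globin, 8.02. Epor itself had 9.29 and 9.52 in nucleated erythrocytes and 3.83 and 2.93 in granulocytes, a difference of 6.03.

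Downstream of Epor the picture was mixed. The kinase Jak2 did not pass the call threshold (12.63 and 12.63 in nucleated erythrocytes, 11.91 and 11.95 in granulocytes). Stat5b, which Jak2 activates, was lower by 3.43 log2 units with 7.81 and 7.01 in nucleated erythrocytes, against 11.05 and 10.63 in granulocytes. Its close relative Stat5a was lower by 1.52 (limma adjusted p 0.0212), a call that was lost in 4 of the alternative settings. Nfe2, a factor shared by erythroid, megakaryocytic and myeloid cells, had 13.26 and 13.33 in nucleated erythrocytes and 12.49 and 12.71 in granulocytes, and was not called.

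Most of the heme pathway was higher in nucleated erythrocytes. Of 22 tested genes for heme synthesis and transport 16 were higher and 4 lower, with a median of 4.83. Alas2, the erythroid first enzyme of the pathway, had 14.98 and 15.02 in nucleated erythrocytes, against 11.49 and 10.02 in granulocytes, and no other type had a mean above 4.39. The groups did not overlap, and the granulocyte arrays were also far above the other types. Its 5′ flank is shown because it holds both motif kinds searched for erythroid factors (RefSeq, GRCm38.p6, chrX:150547167-150547466, plus strand, 250 bases before to 50 after the annotated start). The capitals mark a GATA match on the minus strand 86 bases before the start, and 4 matches on the minus strand to the CACCC-type motif, of which the first 3 overlap in series, that begin between 42 and 26 bases before it.
Alas2: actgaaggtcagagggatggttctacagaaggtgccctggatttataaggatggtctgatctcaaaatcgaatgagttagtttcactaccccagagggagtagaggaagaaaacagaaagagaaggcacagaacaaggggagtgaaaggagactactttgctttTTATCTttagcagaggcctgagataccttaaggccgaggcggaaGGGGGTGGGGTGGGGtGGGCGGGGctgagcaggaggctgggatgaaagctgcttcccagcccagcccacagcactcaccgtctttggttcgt
The GATA motif (AGATAA or TGATAA on either strand) occurred in the windows of 15 of 56 genes (26.8%) called higher in the erythroid lists. The organelle clearance list was not part of this count. The share was 10.2% for the windows of all genes tested and 18.6% for all promoter windows. Among genes called lower, it was 21.7% for 23 windows of granule, calprotectin and stefin genes. For 43 windows of sensing, receptor and oxidase genes called lower it was 11.6%. The CACCC-type motif (CCNCNCCC on either strand) occurred in 66.1% of the same 56, against 68.0% of all genes tested. These are counts of letters in a window and do not show binding.

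The later enzymes followed Alas2. Alad, the second enzyme, was 8.16 log2 units higher, with 13.16 and 12.85 in nucleated erythrocytes and 5.90 and 3.78 in granulocytes. Uros was 5.92 higher and Fech, which inserts iron into the ring, 3.25 higher. The mitochondrial transporter Abcb10 was 6.13 higher and the porphyrin exporter Abcg2 5.82 higher. None of these 5 genes overlapped between the types. Alas1, the housekeeping isoform of the first enzyme, went the other way, with 6.88 and 7.30 in nucleated erythrocytes and 10.23 and 11.03 in granulocytes (difference -3.54 ± 0.31, SE; limma adjusted p 4.02e-07). A second isoform pair split alike: the mitochondrial iron importer of erythroid cells, Slc25a37 (mitoferrin-1), was 3.47 higher, and its relative Slc25a28 (mitoferrin-2) was lower by 2.27. The heme exporter Flvcr1 had 7.05 and 6.68 in nucleated erythrocytes, against 11.57 and 11.38 in granulocytes. Of the enzymes that break heme down, the biliverdin reductase Blvrb was 8.42 higher, and Hmox1, heme oxygenase, varied more within a type than between types (4.42 and 5.96 in nucleated erythrocytes, 7.79 and 3.81 in granulocytes) and was not called.

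**Figure D4:**
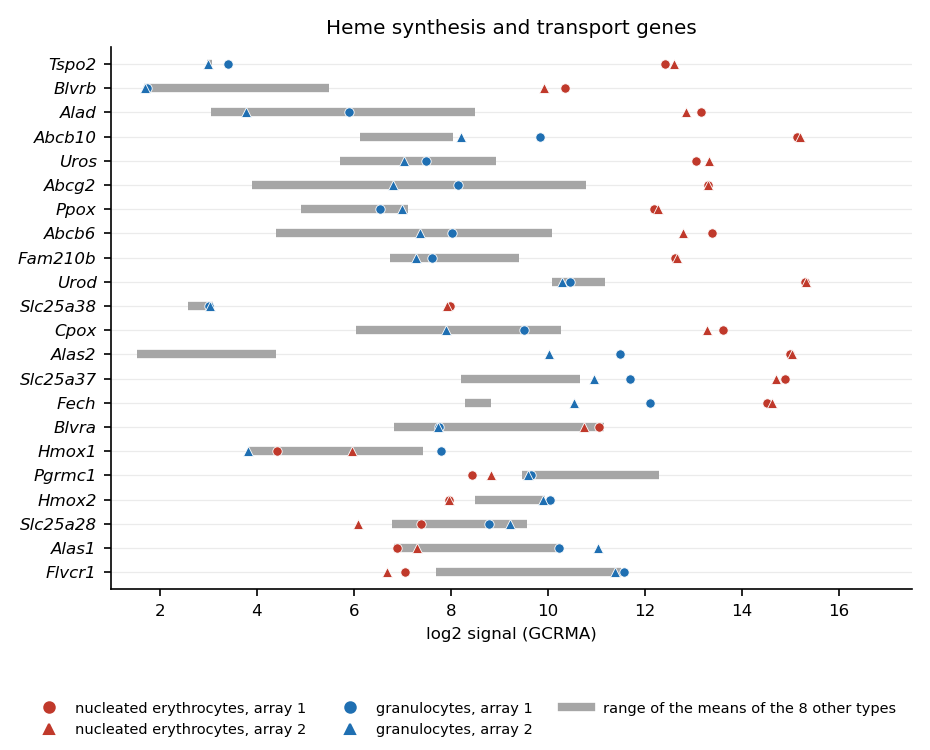
Log2 signal (horizontal axis) of the 22 tested genes of heme synthesis and transport, ordered from the largest positive to the largest negative difference. Red marks nucleated erythrocytes, blue granulocytes, circles array 1, triangles array 2, and grey bars the means of the 8 other types. Alas2 is high in both types relative to the grey bar, and Alas1, Slc25a28 and Flvcr1 at the foot of the plot are lower in nucleated erythrocytes.

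Both tested globin genes were higher. The adult beta chain Hbb-b2 had 11.71 and 11.77 in nucleated erythrocytes, against 7.78 and 3.32 in granulocytes, whose arrays thus differed by over 4 log2 units. The embryonic chain Hbb-y had 9.17 and 8.58 in nucleated erythrocytes and at most 3.08 in granulocytes, within the range of the other types (2.98 to 3.21). Other probe sets of these genes did not all show this. Another Hbb-b2 set had 3.40 and 3.38 in nucleated erythrocytes, against 3.32 and 5.69 in granulocytes. A further Hbb-y set had 9.29 and 8.57 in nucleated erythrocytes, against 2.89 and 2.97 in granulocytes. Yet another Hbb-y set was low in both types, with 2.00 and 2.54 against 1.88 and 1.90. Globin genes share much sequence, so a probe set may bind more than 1 of them. Those alpha globin probe sets that carry a single gene symbol did not pass the filter on low values, and 7 further listed globin and chaperone names without a probe set of their own are not analysed here.

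Iron genes differed in both directions. Of 18 tested genes 7 were higher, 3 lower and 8 not called, with a median of 0.83. Over all genes tested 22.6% were higher and 30.3% lower. The transferrin receptor Tfrc had 16.28 and 16.35 in nucleated erythrocytes and 12.57 and 10.69 in granulocytes, a difference of 4.68. Tfr2, the second transferrin receptor, was 5.66 higher, and the endosomal iron transporter Slc11a2 (DMT1) was 5.02 higher. All 3 serve iron uptake through transferrin, and none of them overlapped between the types. Glrx5 and Nfs1, which build iron-sulphur clusters, were 4.46 and 2.32 higher. The 3 lower genes were Slc11a1, the phagosomal metal transporter (3.62 and 3.74 in nucleated erythrocytes, 9.72 and 9.91 in granulocytes), the ferrireductase Steap4 and Fbxl5, the iron-sensing ubiquitin ligase subunit. The iron exporter Slc40a1 was not called, with 12.45 and 12.05 in nucleated erythrocytes and 13.37 and 13.61 in granulocytes.

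The red cell membrane list had the highest median of the 23 lists, 6.25. Of its 24 tested genes 20 were higher and 1 was lower. Band 3, Slc4a1, the anion exchanger that anchors the skeleton, had 16.84 and 16.82 in nucleated erythrocytes, against 13.29 and 11.89 in granulocytes and at most 6.80 in the other types. Protein 4.2 (Epb42) had 14.78 and 15.25 in nucleated erythrocytes and 9.24 and 6.67 in granulocytes. The Rh proteins Rhag and Rhd were 6.66 and 8.36 higher, the water channel Aqp1 8.01 higher and ankyrin-1 (Ank1) 6.58 higher. For Rhd the granulocyte arrays were 8.22 and 2.60, the first far above the other types (at most 1.55) and the second closer to them. Erythroid beta-spectrin, Sptb, differed without such spread, with 8.34 and 8.36 in nucleated erythrocytes and 2.03 and 2.08 in granulocytes. The spectrins of other tissues were lower: Sptbn1 by 3.31 and Sptan1 by 3.25. Other Sptbn1 probe sets above the filter value differed by -1.475 and by only -0.055. On the probe sets used, the erythroid spectrin and these relatives thus differed in opposite directions. Cd44, an adhesion receptor, was the 1 lower member, with 7.90 and 8.51 in nucleated erythrocytes and 13.98 and 13.20 in granulocytes. The glycoprotein Cd24a, carried by both lineages, overlapped between the types, with 14.34 and 14.51 in nucleated erythrocytes and 14.05 and 14.61 in granulocytes. On its other probe sets the types did not overlap, with differences of 1.295 and 0.365.

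Enzymes that protect red cells rose together, with 15 of 17 tested genes higher, 1 lower and a median of 4.17. The peroxiredoxin Prdx2 had 14.70 and 14.86 in nucleated erythrocytes, against 10.76 and 9.02 in granulocytes. It removes peroxides, and its 2 granulocyte arrays lay within the range of the other types. Carbonic anhydrase Car1 was 5.25 higher, and both subunits of the enzyme that starts glutathione synthesis, Gclc and Gclm, were 5.54 and 4.86 higher. Thioredoxin, Txn1, was lower by 1.24, and Gpx4 was not called. Of 19 tested genes of organelle clearance and protein turnover 16 were higher and 1 lower, with a median of 2.68. The ubiquitin ligase Ube2o, which clears proteins from maturing red cells, had 10.70 and 10.92 in nucleated erythrocytes and 2.95 and 2.40 in granulocytes, where it lay near the low end of the other types. The RING-finger gene Trim10 was 6.95 higher, and the ubiquitin ligase subunits Ubac1 and Fbxo7 were 6.58 and 4.79 higher. Bnip3, a mitophagy receptor, was the exception, with 4.18 and 3.96 in nucleated erythrocytes and 10.77 and 9.70 in granulocytes. On the first erythrocyte and second granulocyte array alone these erythroid lists again had more members higher than lower. Markers by which those arrays were chosen, such as Alas2, Slc4a1 and Epb42, are in these lists, so this adds no independent support.

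Granule proteins were lower in nucleated erythrocytes, but by very different amounts. Of 19 tested genes of the secondary and tertiary granules 18 were lower and none higher, with a median of -5.62. All 6 tested primary granule genes were lower too, with a median of -3.19. Mmp8, the neutrophil collagenase, had 5.25 and 7.30 in nucleated erythrocytes, against 14.30 and 13.94 in granulocytes. The adhesion subunit Itgb2l (-7.78), the protease inhibitor Slpi (-7.72), the citrullinating enzyme Padi4 (-8.10) and the granule glycoprotein Olfm4 (-7.53) differed as much. Other granule transcripts differed less. Lactoferrin, Ltf, had 11.65 and 13.37 in nucleated erythrocytes and 15.04 and 15.46 in granulocytes, and only up to 8.35 in the other types. The groups did not overlap, and the second erythrocyte array was the closer to granulocytes. The cathelicidin Camp had 10.83 and 12.74 in nucleated erythrocytes and 15.20 and 15.97 in granulocytes. The second erythrocyte array was above the first for all 19 secondary and tertiary genes, by a median of 1.58. On the first erythrocyte and second granulocyte array alone 16 of the 19, and 5 of the 6 primary granule genes, were lower.

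Myeloperoxidase, Mpo, had 10.02 and 11.15 in nucleated erythrocytes and 12.77 and 11.97 in granulocytes, while the means of the other 8 types stayed between 2.10 and 2.15. The neutrophilic granule protein Ngp was barely past the threshold (difference -1.38, limma adjusted p 0.0417), and its call was lost in 15 of the alternative settings. The calprotectin subunits S100a8 and S100a9 were not called, with 14.19 and 15.26 in nucleated erythrocytes against 16.22 and 16.43 in granulocytes for S100a8. Their standard errors of 1.66 and 1.59 came from a spread pooled over all 10 types. Of the 5 tested calprotectin and stefin genes 3 were lower, with a median of -6.36. Compared with the mean of the 8 other types, 14 of the 19 secondary and tertiary genes were higher in nucleated erythrocytes, against 18.7% of all genes tested, and 12 were higher without the second erythrocyte array.

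The window of Ltf is shown because it holds both motifs searched for the granulocyte factors (RefSeq, GRCm38.p6, chr9:111019042-111019341, plus strand). The capitals mark 2 C/EBP-type matches on the minus strand, 217 and 75 bases before the start, and a PU.1-type match on the minus strand 157 bases before it.
Ltf: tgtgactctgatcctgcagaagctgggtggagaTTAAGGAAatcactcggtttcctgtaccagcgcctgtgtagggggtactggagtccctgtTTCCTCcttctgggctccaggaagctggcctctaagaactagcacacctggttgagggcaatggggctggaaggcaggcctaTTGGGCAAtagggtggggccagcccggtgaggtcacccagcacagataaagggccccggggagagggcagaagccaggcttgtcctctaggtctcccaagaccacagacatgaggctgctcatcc
The C/EBP-type motif (TTNCNNAA on either strand) was found in 13 of 23 windows (56.5%) of granule, calprotectin and stefin genes called lower, against 31.6% of the windows of all genes tested. The share was 40.7% for all promoter windows. It was 46.5% for sensing, receptor and oxidase genes called lower, and 37.5% for genes called higher in the erythroid lists. The PU.1-type motif (GAGGAA on either strand) was found in 14 of these 23 (60.9%) and in 53.5% of 43 windows of sensing, receptor and oxidase genes called lower, against 26.6% of those of all genes tested.

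The equipment of the mature phagocyte was mostly lower. Of 11 tested genes listed with the NADPH oxidase, not all of them subunits, 8 were lower and 1 higher, with a median of -4.76. The membrane subunits Cybb and Cyba had 5.51 and 8.57, and 5.09 and 7.59, in nucleated erythrocytes. In granulocytes Cybb had 12.74 and 12.54, and Cyba 12.91 and 13.31. Both subunits were thus lower without overlap, although the erythrocyte arrays were over 2 log2 units apart. The cytosolic subunits Ncf1 and Ncf4 were lower by 5.34 and 5.24. The higher member was not an oxidase subunit but Sod2, the mitochondrial superoxide dismutase. It had 12.96 and 12.55 in nucleated erythrocytes and 11.02 and 10.97 in granulocytes. Other Sod2 probe sets above the filter value differed by 1.62 and by -0.13.

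Among 17 tested receptors for chemoattractants and growth factors 15 were lower and 1 higher, with a median of -4.56. The leukotriene B4 receptor Ltb4r1 had 1.95 and 1.94 in nucleated erythrocytes, against 9.87 and 10.03 in granulocytes. The chemokine receptor Cxcr2 had 2.73 and 2.72 in nucleated erythrocytes and 7.26 and 6.93 in granulocytes. Both receptors lay near the low end of the other types in nucleated erythrocytes, whereas Csf3r, the G-CSF receptor, had 6.84 and 8.60 there and 11.44 and 11.30 in granulocytes. Il1r2, the decoy receptor for interleukin-1, was lower by 7.43 and the chemokine receptor Ccr1 by 6.79. Ccrl2, a chemerin-binding receptor, was the 1 higher member, with 11.13 and 11.86 in nucleated erythrocytes and 6.05 and 5.76 in granulocytes. Csf1r was close to the threshold (limma adjusted p 0.0472) and lost its call in 18 settings.

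Leukocyte adhesion genes split by integrin. Of 16 tested genes 13 were lower and 3 higher, with a median of -2.83. The beta-2 integrin genes were lower: Itgam had 2.56 and 2.54 in nucleated erythrocytes and 8.43 and 8.19 in granulocytes, Itgal was lower by 5.25 and Itgb2 by 5.26. The 2 chains of the integrin by which erythroblasts bind macrophages and fibronectin were higher: Itga4 had 12.86 and 13.07 in nucleated erythrocytes and 10.59 and 10.00 in granulocytes, and Itgb1 was 2.08 higher. The third higher gene was Cd47, which restrains phagocytes, at 1.16. The calls of Itgb1 and Cd47 were lost in 3 and 4 settings, and 1 adhesion gene was higher without the second granulocyte array or with the mean of a gene's probe sets.

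Of 36 tested genes for innate sensing and signalling 32 were lower and none higher, with a median of -5.40. Clec5a, a lectin receptor of myeloid cells, had 2.38 and 2.36 in nucleated erythrocytes and 10.72 and 10.51 in granulocytes. The cytokine gene Il1b was lower by 7.51, the signal inhibitors Irak3 and Socs3 by 7.61 and 7.66. Cd14 was low in both types (1.68 and 1.66 in nucleated erythrocytes, 2.12 and 1.82 in granulocytes). Of 21 tested factors of granulocytes 15 were lower and none higher, with a median of -3.71. PU.1 itself, Spi1, had 4.59 and 4.58 in nucleated erythrocytes and 9.15 and 9.82 in granulocytes, so that the erythrocyte arrays were close to the lowest of the other types (4.35). Cebpd was lower by 8.64, the AP-1 gene Fos by 7.96 and the repressor Bcl6 by 4.55. Jun, another AP-1 gene, was not called, with 6.39 and 6.72 in nucleated erythrocytes and 7.64 and 6.70 in granulocytes, so that the types overlapped. On the first erythrocyte and second granulocyte array alone 8 oxidase, 14 receptor, 11 adhesion, 31 sensing and 13 transcription factor genes were lower.

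Genes of the cell cycle were higher in nucleated erythrocytes almost without exception. Of 61 tested mitosis genes 60 were higher and none lower, with a median of 4.00, and of 43 tested DNA replication genes 41 were higher and none lower, with a median of 3.80. The mitotic phosphatase Cdc25c had 11.30 and 10.54 in nucleated erythrocytes, against 4.76 and 2.98 in granulocytes. Cyclin F, Ccnf, had 10.62 and 10.37 in nucleated erythrocytes and 3.89 and 3.93 in granulocytes. For both genes the means of the 8 other types stayed at or below 4.78. The kinesin Kif18a was 6.39 higher, survivin (Birc5) 5.93, the ubiquitin-conjugating enzyme of mitotic exit Ube2c 5.76 and the kinase Aurka 5.75. Tpx2, which activates Aurka, was the 1 mitosis gene not called, at 2.67 log2 units higher (limma adjusted p 0.0642). The size of this difference varied with the probe set, since 2 further Tpx2 probe sets differed by 5.83 and 6.50 in the same direction. Another differed by 2.28, close to the one used. In replication, thymidine kinase Tk1 had 9.78 and 8.83 in nucleated erythrocytes and 3.55 and 2.89 in granulocytes. No other type had a mean above 4.61 for this gene of thymidine salvage. The helicase subunit Mcm2 was 5.29 higher, the origin-licensing factor Cdc6 5.26 and the E cyclins Ccne1 and Ccne2 5.62 and 5.71. The clamp loader subunits Rfc1 and Rfc2 were the 2 genes not called. On the first erythrocyte and second granulocyte array alone 56 mitosis and 42 replication genes were higher.

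Set against the 8 other types, the mitosis and replication lists parted in granulocytes. Mitosis genes were higher than the mean of those types for 59 of 61 in nucleated erythrocytes (background 18.7%) and for 37 of 61 in granulocytes (background 21%), with none lower in either type. Replication genes were higher for 41 of 43 in nucleated erythrocytes, but in granulocytes for only 2, with 15 lower (background 27.3%). The mitosis medians were 12.39 and 12.17 in nucleated erythrocytes and 8.83 and 7.75 in granulocytes, and the other arrays reached 7.58 at most. The replication medians were 12.04 and 11.70 in nucleated erythrocytes and 8.14 and 7.13 in granulocytes, below both arrays of each activated T cell type (9.15 to 10.64). The first granulocyte array, which had more of the erythroid markers, was above the second for 53 of 61 mitosis genes and 33 of 43 replication genes. Without it 19 mitosis genes were higher in granulocytes than in the other types, no replication gene was higher and 19 were lower. With the second erythrocyte array left out as well, 15 of the 61 mitosis genes were higher in granulocytes, a share near the background. Without the second array the counts were 38 mitosis genes higher, 3 replication genes higher and 6 lower.

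**Figure D5:**
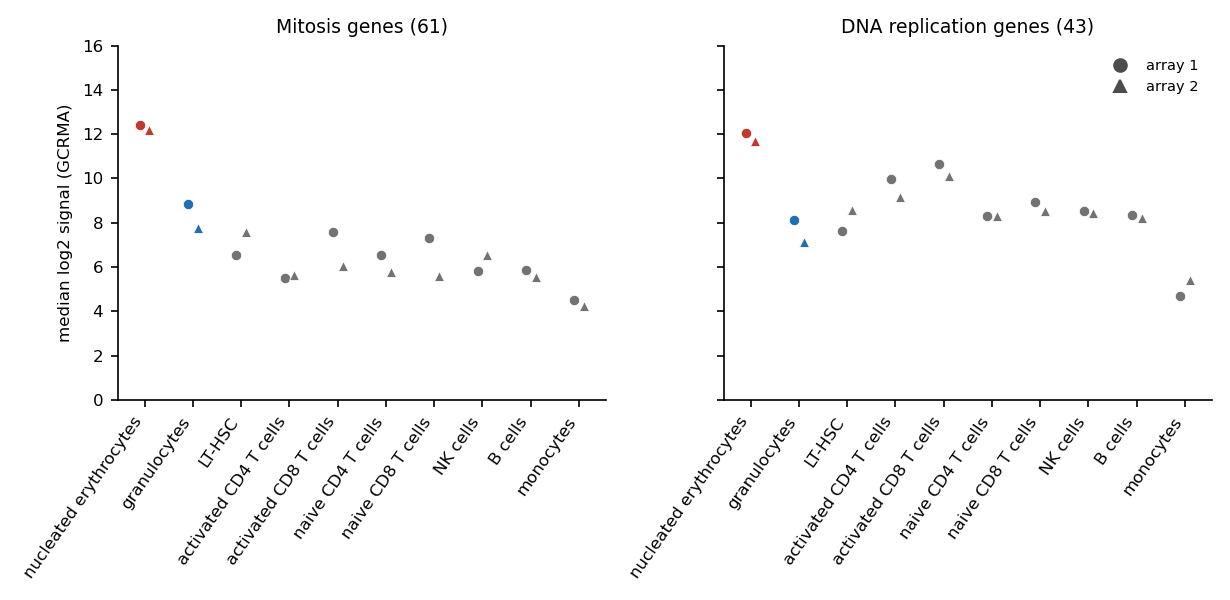
Median log2 signal (vertical axis) over the 61 tested mitosis genes (left) and the 43 tested DNA replication genes (right) on each array of the 10 cell types, circles for array 1 and triangles for array 2. Nucleated erythrocytes (red) are highest in both panels. Granulocytes (blue) are next for mitosis, while for replication their arrays lie below those of all T, NK and B cell types.

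A window for each of these programmes is shown because cell-cycle promoters have well-described elements, the CHR with CCAAT boxes for mitosis and the E2F site for replication. For the mitotic cyclin gene Ccnb2 (RefSeq, GRCm38.p6, chr9:70421505-70421804, minus strand) the capitals mark 2 CHR matches, 1 of them beginning at base 5 after the start, and 3 CCAAT boxes 87, 54 and 21 bases before it. For the helicase subunit gene Mcm6 (chr1:128359656-128359955, minus strand) they mark 3 E2F-type matches, of which the first 2 overlap, and 2 CCAAT boxes on the opposite strand.
Ccnb2: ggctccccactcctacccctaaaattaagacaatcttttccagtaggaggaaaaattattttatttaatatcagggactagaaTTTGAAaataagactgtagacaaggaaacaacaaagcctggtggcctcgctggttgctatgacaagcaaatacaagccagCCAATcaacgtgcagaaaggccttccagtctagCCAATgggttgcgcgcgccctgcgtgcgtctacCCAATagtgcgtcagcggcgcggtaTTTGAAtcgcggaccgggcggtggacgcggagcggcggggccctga
Mcm6: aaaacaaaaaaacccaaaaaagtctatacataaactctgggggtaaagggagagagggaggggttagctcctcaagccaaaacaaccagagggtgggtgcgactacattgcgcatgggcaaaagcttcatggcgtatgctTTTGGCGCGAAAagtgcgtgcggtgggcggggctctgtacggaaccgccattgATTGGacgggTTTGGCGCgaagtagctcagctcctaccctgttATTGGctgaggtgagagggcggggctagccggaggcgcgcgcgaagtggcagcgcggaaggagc
The CHR letters (TTTGAA on either strand) were in 37 of 52 windows (71.2%) of mitosis genes called higher, against 12.3% of the windows of all genes tested. CCAAT on either strand was in 71.2% of the same 52, against 38.7%. The E2F-type letters (TTTNNCGC on either strand) were in 13 of 33 windows (39.4%) of replication genes called higher, against 8.89% of all genes tested. In the mitosis windows the E2F-type letters were in 17.3%, and in the replication windows the CHR letters in 18.2%.

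Regulators of entry into the cycle did not follow the same pattern. Of 28 tested G1 cyclins, partner kinases and inhibitors 12 were higher, 4 lower and 12 not called, with a median of 0.38. The D cyclins were not called: Ccnd3 had 12.47 and 11.41 in nucleated erythrocytes and 11.99 and 11.97 in granulocytes. Another Ccnd3 probe set of lower signal had 4.19 and 4.91 in nucleated erythrocytes and 8.19 and 6.84 in granulocytes. Ccnd2 had 7.59 and 6.78 in nucleated erythrocytes and 7.49 and 6.76 in granulocytes. Ccnd2 was below all other types in both (9.88 to 12.93). The repressors E2f7 and E2f8 were 6.04 and 2.88 higher, and the inhibitor Cdkn2c was 4.74 higher, with 10.85 and 10.72 in nucleated erythrocytes and 7.17 and 4.92 in granulocytes. Among the lower genes were the Myc antagonists Mxd1 (by 1.48) and Mxd4 (by 3.81) and the pocket protein Rbl2 (by 2.99), while the related antagonist Mxd3 was 3.62 higher and the pocket protein Rbl1 3.94 higher.

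Of 15 tested nuclear envelope genes 5 were higher and 3 lower, with a median of 0.21. Over all genes tested 22.6% were higher and 30.3% lower, so these counts are not far from the background. Lamin A, Lmna, which stiffens nuclei and is scarce in the pliable nuclei of neutrophils, had 11.59 and 10.21 in nucleated erythrocytes and 3.67 and 3.74 in granulocytes (difference 7.20 ± 0.72, SE; limma adjusted p 1.36e-06). Lmnb1 overlapped between the types, with 11.19 and 10.07 in nucleated erythrocytes and 10.51 and 9.72 in granulocytes. The nesprin Syne1, which links nucleus and cytoskeleton, was lower by 3.80.

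Glycolysis and hexose transport genes differed in both directions, with 7 of 25 tested genes higher, 16 lower and a median of -3.70. Pklr, the pyruvate kinase of red cells and liver, had 7.68 and 5.49 in nucleated erythrocytes and 2.48 and 2.50 in granulocytes. Pkm, the isoform of most other tissues, had 5.87 and 6.23 in nucleated erythrocytes and 12.35 and 12.59 in granulocytes. The 2 pyruvate kinases thus differed in opposite directions, by 4.09 and by -6.42. Likewise hexokinase Hk1 was 1.12 higher and Hk3 lower by 6.43. The glucose transporter Slc2a4 (GLUT4) had 7.56 and 7.45 in nucleated erythrocytes, against 2.13 and 2.24 in granulocytes and 2.12 to 2.19 in the other types, and Slc2a1 (GLUT1) had 5.60 and 6.03 in nucleated erythrocytes and 10.97 and 11.11 in granulocytes. The monocarboxylate transporter Slc16a1 was 7.01 higher. The array's Gapdh and Actb control probe sets also gave lower values. The 5′ set of Gapdh had 4.04 and 4.05 in nucleated erythrocytes and 8.26 and 8.23 in granulocytes, and its 3′ set 12.70 and 12.45 in nucleated erythrocytes and 14.82 and 15.08 in granulocytes. The 5′ set of Actb had 5.73 and 4.05 in nucleated erythrocytes and 9.15 and 7.59 in granulocytes, and its 3′ set 11.53 and 11.36 in nucleated erythrocytes and 13.64 and 13.41 in granulocytes. Both control genes were thus lower at both ends of the transcript. Whether RNA length moved with these differences was not tested.

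Of 12 tested Bcl2 family genes, which govern cell survival, 3 were higher and 5 lower, with a median of -0.01, not far from the shares over all genes tested. The number higher was 1 without the first erythrocyte array and 0 with the mean of a gene's probe sets. Bcl2l1, whose product Bcl-xL keeps erythroblasts alive, had 12.73 and 13.19 in nucleated erythrocytes and 8.85 and 9.02 in granulocytes. Mcl1, on which neutrophils depend, was lower by 1.07, with 14.05 and 14.27 in nucleated erythrocytes and 15.07 and 15.39 in granulocytes. The pro-death genes Bmf and Bid were lower by 3.95 and 3.08. In the cytoskeleton 5 of 27 tested actin and tubulin genes and partners were higher and 15 lower, with a median of -1.88. Coronin, Coro1a, had 7.99 and 9.21 in nucleated erythrocytes and 14.07 and 14.42 in granulocytes, filamin (Flna) was lower by 5.22 and vimentin (Vim) by 4.01. Among the higher genes were the tropomyosin Tpm1 (4.25) and the beta-tubulins Tubb2a (4.11) and Tubb5 (3.79), while Tpm4 was lower by 4.66 and the alpha-tubulin Tuba1a by 4.10.

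A small set of genes was high in both types. In 43 genes, 0.438% of those tested, both nucleated erythrocytes and granulocytes exceeded each of the 8 other types by at least 1 log2 unit (limma, the largest of 16 one-sided p-values, adjusted). By margin the first were Mpo (8.43 above the next type), the erythroid membrane protein Ermap (7.94), Camp (7.33), Alas2 (6.36), the eosinophil peroxidase Epx (5.86), Slc4a1 (5.79), Triobp (5.53), the granule protease Ctsg (5.33), the membrane glycoprotein Prom1 (5.19) and Depdc1b (4.95). Products of 1 lineage thus filled most of these places. Ermap had 15.32 and 15.42 in nucleated erythrocytes and 11.16 and 8.97 in granulocytes. Epx had 8.47 and 7.22 in nucleated erythrocytes and 10.18 and 9.49 in granulocytes. The second erythrocyte array, with more neutrophil transcripts, was the lower of its pair for Epx. Depdc1b differed from these in not being called between the 2 types, with 12.93 and 12.92 in nucleated erythrocytes and 11.82 and 11.18 in granulocytes. The set held 36 genes on the first erythrocyte and second granulocyte array alone, and none when each pair of types was fitted by itself with limma (70 genes at an unadjusted p under 0.05).

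Markers of other cells were looked at beside these results. Of 7 tested markers of the macrophages that nurse erythroblasts, 3 were higher and 1 lower, and 5 were higher without either NK cell array. C1qb, a complement subunit made by macrophages, had 11.88 and 8.88 in nucleated erythrocytes and 7.53 and 7.38 in granulocytes, and the scavenger receptors Mrc1 and Cd163 were 3.73 and 4.09 higher. The first erythrocyte array was above the second for 6 of these 7, by a median of 1.34. Array medians of the list were 7.49 and 6.70 in nucleated erythrocytes and 4.66 and 4.78 in granulocytes. Of 6 tested platelet markers 2 were higher and 1 lower. Over all genes tested 22.6% were higher and 30.3% lower, so counts in lists this short are not far from the background. Gp9 had 7.70 and 6.08 in nucleated erythrocytes and 1.78 and 1.80 in granulocytes, and Itgb3 was lower by 5.08. The number of platelet markers higher was 1 without the first erythrocyte or the first granulocyte array. Array medians of 10 T cell markers were low, at 3.07 and 3.36 in nucleated erythrocytes and 2.86 and 2.99 in granulocytes, and 1 of them, Cd3d, was lower. The medians of 9 NK cell markers were 3.38 and 3.22 in nucleated erythrocytes and 3.75 and 3.37 in granulocytes. Those of 8 B cell markers were above the filter value, at 5.84 and 6.40 in nucleated erythrocytes and 5.92 and 5.18 in granulocytes, against 13.81 and 14.13 in B cells, and none was called. The NK cell marker Nkg7 was called lower, a call lost without the first granulocyte or the second erythrocyte array. Of 10 stem cell markers Kit and Meis1 were lower, and Meis1 lost its call in 10 settings. Leaving out the first granulocyte array, the first erythrocyte array, or either array of the stem cells or B cells left 1 stem cell marker. Of 9 monocyte markers 3 were lower, near the share over all genes tested (30.3%), and 1 without the first granulocyte array. The part of these cells in the results was not tested.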

How the data were processed

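Log2 values per probe set were deposited for all 20 arrays. The submitters' processing notes name GCRMA (version not given in the sources used here), which corrects background, normalizes across arrays and compresses low signals, so differences at low signal are uncertain. Array scans and detection calls were not used. Probe sets were named through GEO's platform annotation, updated to RefSeq symbols, and those with several symbols were left unnamed. Each of 18193 genes was represented by the probe set whose mean was highest across the 20 arrays. Genes above a log2 value of 5 on at least 2 arrays were tested (9810). limma 3.58.1 in R 4.3.3 fitted 1 mean per type to all 20 arrays and pooled the spread over the 10 types, with 10 residual degrees of freedom. On data simulated from these arrays, 89% of 100 genes changed by 3 log2 units and 45% of 100 changed by 1.5 were called, with 4 false calls. The number of arrays, 2 per type, limits the precision. Named genes were the 15 largest differences each way without overlap, up to 6 called members with a list's majority and up to 3 against it or not called, isoform pairs, lineage markers and the 10 largest shared margins. The compared types, the gene lists and the markers were chosen with earlier results of these data known. Alternatives covered the filter, scaling, probe set choice, model and single arrays.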

Additional observations from a re-analysis of the deposited data

How the results depend on the processing

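Counts of genes called between nucleated erythrocytes and granulocytes kept within 1.5 times under every alternative run: 1847 to 2395 higher and 2457 to 3050 lower over the settings, and 1966 to 2275 higher and 2725 to 3027 lower when 1 array was left out. Counts of each type against the 8 others kept within the same limit, and no direction reversed. Among the counts over all genes, the set high in both types was the exception, with 0 genes when only the groups compared were fitted, 27 with array weights, and 32 to 56 when 1 array was left out. Counts of short lists moved by more than 1.5 times more often, as given beside most of them. With the mean of a gene's probe sets, members higher were 0 for the oxidase, 3 for the nuclear envelope, 4 for glycolysis and 3 for actin and tubulin, and 3 eosinophil, basophil and mast cell markers were lower with a filter value of 7. Red cell membrane genes lower were 2 without an array of the stem cells, activated CD8 T cells or monocytes, and erythroid factors lower were 1 without either granulocyte array or the second erythrocyte array. Deviations of same-numbered arrays correlated over genes at -0.0529 between the 2 types, and at -0.2565 to 0.2133 over all 45 pairs of types. With 2 arrays a type this cannot show whether same-numbered samples were paired. With the replicate block 2208 genes were higher and 2962 lower, of which 2199 and 2952 were called without it. Filtering on the 4 arrays compared moved the median difference of all genes to -0.195, and a filter value of 7 moved it to -0.11. Called named genes had 96 further probe sets above the filter value on at least 2 of the 4 arrays, and 95 of them had the same sign. Further probe sets below that limit were not counted, and some had the opposite sign. With 2 pools a type, a gene named as not called may still differ. The comparison on the first erythrocyte and second granulocyte array was chosen after seeing the data.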

Other observations

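Of 21 tested interferon-response genes, which sense and block viruses, 2 were higher and 7 lower in nucleated erythrocytes, with a median difference of -0.41 log2 units. The share lower was near that over all genes tested (30.3%). The antiviral enzyme Rsad2 had 15.01 and 15.10 in nucleated erythrocytes and 13.37 and 12.86 in granulocytes, and Usp18, which removes the ubiquitin-like protein of this response, was 1.49 higher, a call lost in 4 settings. The number higher was 1 without the first erythrocyte array or without either granulocyte array. Ifit3 had 7.50 and 6.27 in nucleated erythrocytes and 10.45 and 11.51 in granulocytes, and the RNA sensor Ddx58 was lower by 3.66. Oas3, which makes an activator of RNase L, was among the 43 genes high in both types, with 8.32 and 8.28 in nucleated erythrocytes and 7.40 and 8.26 in granulocytes. Of 6 tested markers of eosinophils, basophils and mast cells 5 were lower. Siglecf, a lectin of eosinophils, had 3.78 and 4.61 in nucleated erythrocytes and 8.93 and 8.41 in granulocytes, and the basophil protease Mcpt8 was lower by 3.06.

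Further groups were formed by gene symbol after the values had been seen and are given as counts only. Of 18 tested genes whose symbols start with Nup and a number, subunits of the nuclear pore, 13 were higher and none lower, with a median of 1.83. Nup133 had 11.97 and 12.61 in nucleated erythrocytes and 7.75 and 7.66 in granulocytes. Of 45 tested Rab genes, small GTPases of vesicle traffic, 20 were lower and 5 higher, with a median of -0.84. These are 44.4% and 11.1%, against 30.3% and 22.6% of all genes tested. Rab27a, which serves granule release in neutrophils, had 5.71 and 5.50 in nucleated erythrocytes and 12.09 and 12.44 in granulocytes, whereas Rab30 had 10.32 and 10.83 in nucleated erythrocytes and 3.26 and 3.37 in granulocytes. Of 25 tested genes of the solute carrier families Slc6, Slc7, Slc38 and Slc43, many of which carry amino acids, 9 were higher and 5 lower. These are 36% and 20%, against 22.6% and 30.3% of all genes tested. Slc6a9, a carrier of glycine (a building block of heme), had 11.15 and 11.45 in nucleated erythrocytes and 3.10 and 2.54 in granulocytes, and Slc43a1 had 9.54 and 9.55 in nucleated erythrocytes and 2.55 and 2.46 in granulocytes.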
